A study of Mus musculus with 9 samples.

Results

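Genes that carry carbon from pyruvate and glutamate through the TCA cycle were followed in RNA‐seq libraries of differentiated mouse pluripotent stem cells (PSCs) that overexpressed NRF1 (NRF1 OE) or carried an empty vector. The group held 30 named genes, and 29 of these symbols were found among the 56691 genes of the deposited tables. All 29 passed the filter on low counts, which left 16903 genes. Pyruvate carboxylase, the remaining gene, was named as Pc but is listed as Pcx (ENSMUSG00000024892), so its values are given separately and are not in the counts of members.

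The libraries came from embryoid bodies (EBs) of the BVSC PSC line, which carries a Blimp1‐mVenus (BV) and a Stella‐CFP reporter, and cells were sorted into BV+ and BV− fractions. There were 4 groups, namely BV+ cells with NRF1 OE (n = 2), BV+ cells with empty vector control (Ctrl, n = 2), BV− cells with NRF1 OE (n = 3) and BV− cells with Ctrl (n = 2). The labels put cells of all 4 groups through induced differentiation and list 1.5 μg/mL doxycycline (DOX), added on day 2 and kept until day 5, and by the study's text the empty vector cells received DOX too. The Nrf1 cDNA was expressed from the DOX‐inducible p20 vector in the PSCs before sorting. Whether the lines were clones or pools is not given in the sources used here. The labels do not say whether the libraries of a group came from separate cultures, so p‐values may measure technical spread, although the study's methods call them biological replicates.

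Pyruvate enters mitochondria through the MPC1 and MPC2 carrier and is turned into acetyl‐CoA by the pyruvate dehydrogenase complex. Citrate synthase, the isocitrate, 2‐oxoglutarate and malate dehydrogenases, succinyl‐CoA ligase and fumarase then form most of the TCA cycle, while glutamate joins it as 2‐oxoglutarate. The malate–aspartate shuttle carries reducing equivalents into mitochondria, and citrate export supplies cytosolic acetyl‐CoA. NRF1 is best known as an activator of nuclear genes for the respiratory chain, which takes the electrons that this cycle releases.

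Total counts per library lay between 13702162 and 19625460. Nrf1 itself was at 95.7 and 99.4 CPM (counts scaled to a common library size after TMM normalization) in BV+ cells with NRF1 OE and at 91.1 and 90.4 with Ctrl. The BV− levels were 119, 122 and 126 CPM with NRF1 OE and at 99.1 and 105 with Ctrl. The NRF1 OE libraries were above the Ctrl libraries in both fractions, but neither log2 fold change, given here and below ± its standard error (SE), passed edgeR's quasi‐likelihood test at an adjusted p under 0.05 (0.10 ± 0.104, adjusted p = 0.489 in BV+ and 0.26 ± 0.0951, adjusted p = 0.0718 in BV− cells). Of the 9 PGC markers, 0 were called as higher and 0 as lower in BV+ than in BV− cells at Ctrl at an adjusted p under 0.05. Prdm1, which encodes Blimp1, the gene of the BV reporter, was at 57.4 and 62.7 CPM in BV+ and at 58.5 and 57.2 CPM in BV− cells. The summed level of the 9 markers, most of it from Dppa5a at 743 to 970 CPM, was 1274 to 1338 CPM in BV+ against 1480 to 1561 CPM in BV− cells, so BV+ and BV− are used below as names of the sorted fractions. At an unadjusted p under 0.05, the genes that differed between the fractions at Ctrl made up 7.77% of all genes.

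The libraries also differed in how their counts ran with GC content. Across 12025 genes, Spearman's rho of transcript GC content with each gene's departure from its average level was −0.615 to −0.536 in the 4 Ctrl libraries. For NRF1 OE, rho was 0.342 and −0.00625 in the BV+ libraries and 0.0647, 0.703 and 0.60 in the BV− libraries. Results are therefore also given from a fit with offsets for each library's trend over transcript GC content and length. With these offsets Nrf1 was called as higher in BV− cells, at 0.55, and was at 0.27 in BV+ cells.

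Per transcript length, the members covered a wide range of levels. Acly, the cytosolic enzyme that splits exported citrate, was at 109 to 128 FPKM over the 9 libraries and Glud1, glutamate dehydrogenase, was at 84.9 to 121 FPKM. These were followed by Mdh2 (72.4 to 122 FPKM), Got1 (80.4 to 107.2 FPKM), Got2 (68.3 to 120 FPKM) and Pdha1 (62.8 to 89.3 FPKM), whose ranges overlapped. The lowest were the pyruvate carrier subunits, Mpc1 at 0.34 to 0.71 FPKM and Mpc2 at 0.90 to 1.42 FPKM, then Pck2, mitochondrial phosphoenolpyruvate carboxykinase, at 3.95 to 6.17 FPKM. The other members lay between 7.16 FPKM, the lowest library for Sucla2, and 91.5 FPKM, the highest library for Idh2.

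**Figure D1:**
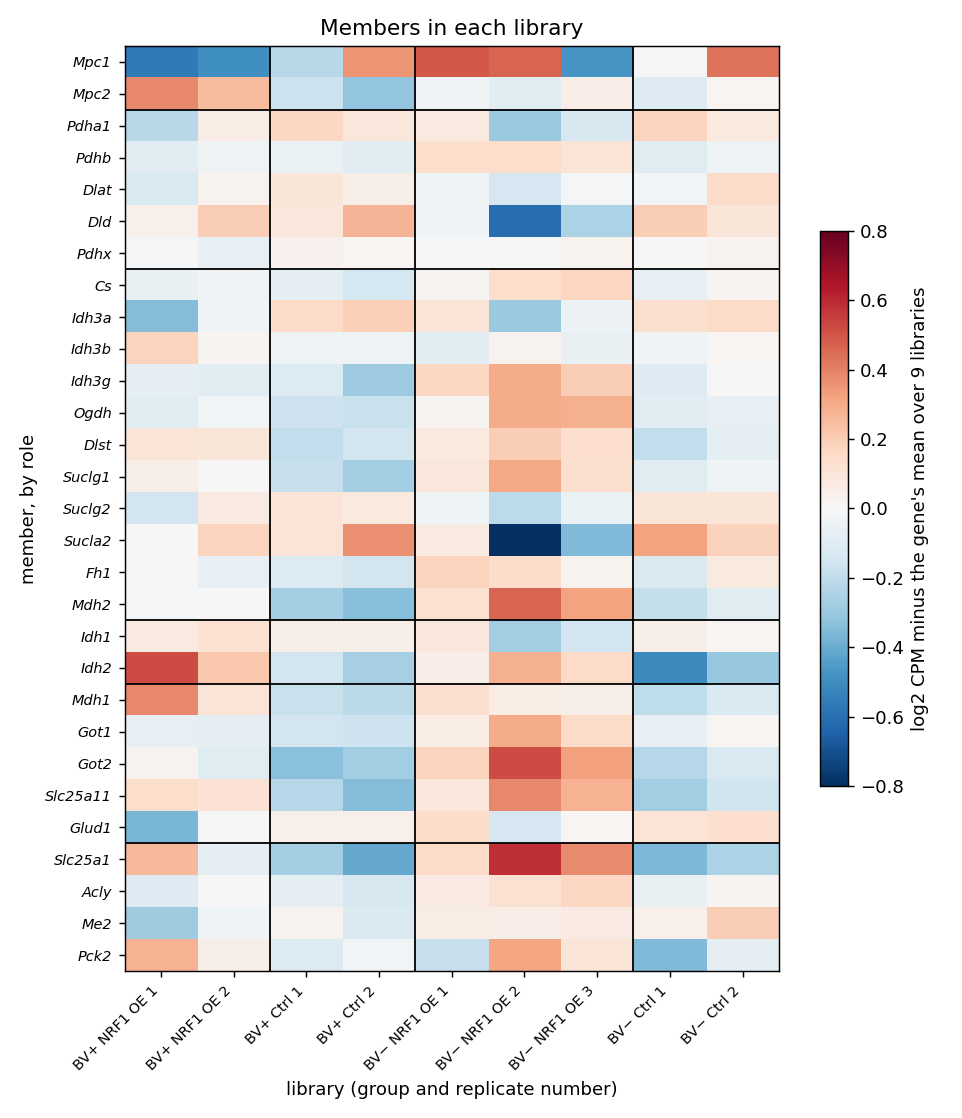
Heat map of the 29 members (rows, by role) in each of the 9 libraries (columns, by group and replicate). Colours give the log2 CPM minus the gene's mean over the libraries. Idh2, Mdh1, Mdh2, Got1, Got2, Slc25a11, Slc25a1, Dlst, Idh3g, Ogdh and Suclg1 were redder in every NRF1 OE library than in the Ctrl libraries of the same fraction. Taking each fraction alone, 38.1% of all genes were higher in this way in BV+ cells and 29.4% in BV− cells. The share of all genes that were higher in both fractions is not given here. Dld and Sucla2 were bluest in BV− NRF1 OE replicate 2, at 54.6 and 28.8 CPM.

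In BV+ cells, NRF1 OE went with higher levels of 2 of the 29 members, Idh2 (1.50‐fold) and Mdh1 (1.36‐fold), and with lower levels of none. Idh2 makes NADPH in mitochondria and Mdh1 is the cytosolic malate dehydrogenase of the malate–aspartate shuttle. A share of 6.90% of the members was called at an adjusted p under 0.05 in edgeR's quasi‐likelihood test, beside 8.02% of all genes tested. In the higher direction the background was 6.24% of genes and in the lower direction 1.78%. The members had a median log2 fold change of 0.09 and all genes tested one of 0.04, and 19 of the 29 members were above 0.

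Groups of 2 and 2 libraries often did not overlap in these data. The NRF1 OE and Ctrl libraries of BV+ cells did not overlap for 24 of the 29 members, 17 higher and 7 lower, and for 70.1% of all genes, of which 38.1% were higher and 32% lower. At an unadjusted p under 0.05 there were 10 members (34.5%), 9 of them higher, beside 32.5% of all genes. The study's threshold asked for an unadjusted p under 0.05 and a log2 fold change beyond 0.58 in either direction. Idh2 alone passed it, beside 17% of genes.

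In BV− cells, NRF1 OE went with higher levels of 5 of the 29 members and with lower levels of none. These were Slc25a1, the mitochondrial citrate carrier, Idh2, Got2, the mitochondrial aspartate aminotransferase, Slc25a11, the 2‐oxoglutarate–malate carrier, and Mdh2, the malate dehydrogenase of the TCA cycle. They were 1.37‐fold higher for Mdh2 up to 1.61‐fold for Slc25a1. The call rate was 17.2% of members and 17.2% of all genes, with 10.2% of genes higher and 6.98% lower. The median log2 fold change was 0.13 for the members and 0.01 for all genes, and 17 of the 29 members were above 0. The groups did not overlap for 18 members, 13 higher and 5 lower, and for 57% of all genes, of which 29.4% were higher and 27.6% lower. At an unadjusted p under 0.05 there were 12 members, 10 higher and 2 lower, beside 39.1% of all genes. By the study's threshold, Slc25a1 passed as higher and Sucla2 as lower, beside 16% of genes.

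**Figure D2:**
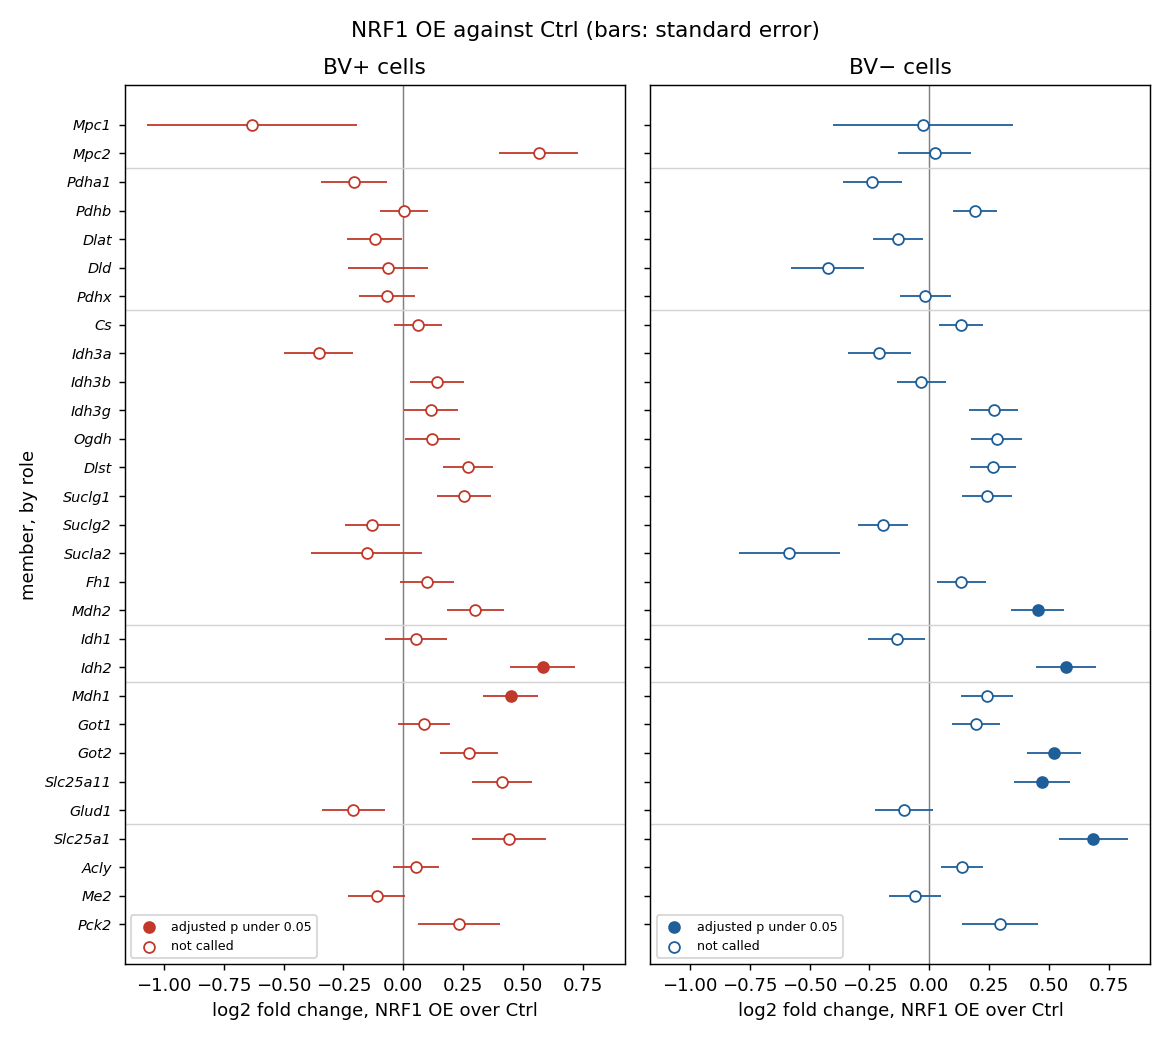
Log2 fold change (x axis) of NRF1 OE over Ctrl in BV+ and in BV− cells for the 29 members (y axis, by role), with bars for the standard error and filled points for an adjusted p under 0.05. The filled points are Idh2 and Mdh1 in BV+ cells and Mdh2, Idh2, Got2, Slc25a11 and Slc25a1 in BV− cells, all to the right of 0, and Sucla2 at −0.58 was the lowest in BV− cells.

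The calls depended on single libraries, among all genes as well as among the members. In BV+ cells, 0 members were called without BV+ NRF1 OE replicate 1, BV− NRF1 OE replicate 3 or either BV+ Ctrl library, 1 without either BV− Ctrl library, 4 without BV+ NRF1 OE replicate 2 or BV− NRF1 OE replicate 1, and 7 without BV− NRF1 OE replicate 2. In BV− cells, 0 were called without BV− NRF1 OE replicate 3 or any of the 4 Ctrl libraries, and 13 without BV− NRF1 OE replicate 1, which added Idh3g, Ogdh, Dlst, Suclg1 and Pck2 as higher and Pdha1, Dld and Sucla2 as lower. Without BV− NRF1 OE replicate 1 or 2, more of all genes were called in BV+ cells, and fewer without replicate 3. In BV− cells more of all genes were called without replicate 1, and fewer without replicate 2 or 3. The rise to 13 members was therefore not particular to the members. The calls given below are from the fit of all 9 libraries unless stated. DESeq2 called 3 members in BV+ cells, adding Slc25a11, and 7 in BV− cells, adding Dld and Sucla2 as lower. It also called more of all genes than edgeR did in both fractions.

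Of the NADP‐dependent isocitrate dehydrogenases, Idh2 was called as higher in both fractions and Idh1 in neither. Idh2 (ENSMUSG00000030541) was at 239 and 194 CPM in BV+ cells with NRF1 OE and at 150.1 and 139 CPM with Ctrl. Its BV− levels were 173, 203 and 186 CPM with NRF1 OE and at 117 and 135 CPM with Ctrl. All NRF1 OE libraries were above all Ctrl libraries. The log2 fold change was 0.58 ± 0.135 (SE, adjusted p = 0.0330 in edgeR) in BV+ and 0.57 ± 0.126 (SE, adjusted p = 0.0317) in BV− cells, and the difference between the fractions was 0.01 ± 0.183 (SE). With the GC and length offsets these log2 fold changes became 0.28 and 0.26, the first still called and the second not. Idh1, the cytosolic enzyme, was at 94.7 and 98.3 CPM with NRF1 OE and at 93.1 and 93.0 CPM with Ctrl in BV+ cells. In BV− cells it was at 95.9, 74.4 and 81.0 CPM with NRF1 OE and at 93.0 and 91.2 CPM with Ctrl, so the groups overlapped in BV− but not in BV+ cells. Neither difference of Idh1 passed the test (log2 fold change 0.05 ± 0.129, adjusted p = 0.795, and −0.14 ± 0.117, adjusted p = 0.411, in edgeR). With the offsets the log2 fold change of Idh1 was 0.25 in BV+ and 0.17 in BV− cells, not called, which was close to the 0.28 and 0.26 of Idh2 with offsets.

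Of the malate–aspartate shuttle and glutamate genes, Mdh1 was called in BV+ cells and Got2 and Slc25a11 in BV− cells. Mdh1 (ENSMUSG00000020321) was at 192 and 158 CPM in BV+ cells with NRF1 OE and at 129.9 and 126 CPM with Ctrl, a log2 fold change of 0.45 ± 0.117 (SE, adjusted p = 0.0418 in edgeR). The BV− levels were 160.2, 153 and 152 CPM with NRF1 OE and at 127 and 135 CPM with Ctrl, and the log2 fold change of 0.24 ± 0.107 (SE, adjusted p = 0.118 in edgeR) was not called. The NRF1 OE libraries were above the Ctrl libraries in both fractions, and the difference between the fractions, 0.21 ± 0.158 (SE, adjusted p = 0.983 in edgeR), did not pass. With the offsets the log2 fold change of Mdh1 was 0.60 in BV+ and 0.46 in BV− cells, called in both.

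Got2 (ENSMUSG00000031672) was at 460.1, 584 and 511 CPM in BV− cells with NRF1 OE and at 348 and 374 CPM with Ctrl, a log2 fold change of 0.52 ± 0.113 (SE, adjusted p = 0.0317 in edgeR). In BV+ cells it was at 414 and 381 CPM with NRF1 OE and at 322 and 335 CPM with Ctrl (log2 fold change 0.27 ± 0.122, adjusted p = 0.144 in edgeR). Slc25a11 (ENSMUSG00000014606) was at 94.2, 116 and 108 CPM in BV− cells with NRF1 OE and at 73.2 and 79.6 CPM with Ctrl, a log2 fold change of 0.47 ± 0.115 (SE, adjusted p = 0.0334 in edgeR). Both genes were higher in every NRF1 OE library than in any Ctrl library of the same fraction. In BV+ cells Slc25a11 was at 97.7 and 96.2 CPM with NRF1 OE and at 75.6 and 69.9 CPM with Ctrl (log2 fold change 0.41 ± 0.125, adjusted p = 0.0617 in edgeR). With the offsets, Got2 was at 0.26 in BV− cells, still called, and at 0.03 in BV+ cells, and Slc25a11 was at 0.20 and 0.17, called in neither.

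Glud1 (ENSMUSG00000021794) had the lowest log2 fold change of these genes in BV+ cells. It was at 361 and 467 CPM with NRF1 OE and at 479 and 478 CPM with Ctrl, and the log2 fold change was −0.21 ± 0.133 (SE, adjusted p = 0.283 in edgeR), and without BV+ NRF1 OE replicate 1 the value was −0.04. In BV− cells, Glud1 was at 516, 424 and 470.2 CPM with NRF1 OE and at 502 and 510.0 CPM with Ctrl, and the groups overlapped. Got1, the cytosolic aspartate aminotransferase, was between 199 and 275 CPM over the 9 libraries and was not called with NRF1 OE in either fraction. Mdh1, Got2 and Slc25a11 overlap Wdpcp, Gm45760 and Rnf167 on the opposite strand in the GRCm38 annotation, and whether the counting used the strand is not given in the sources used here, so their counts are uncertain.

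**Figure D3:**
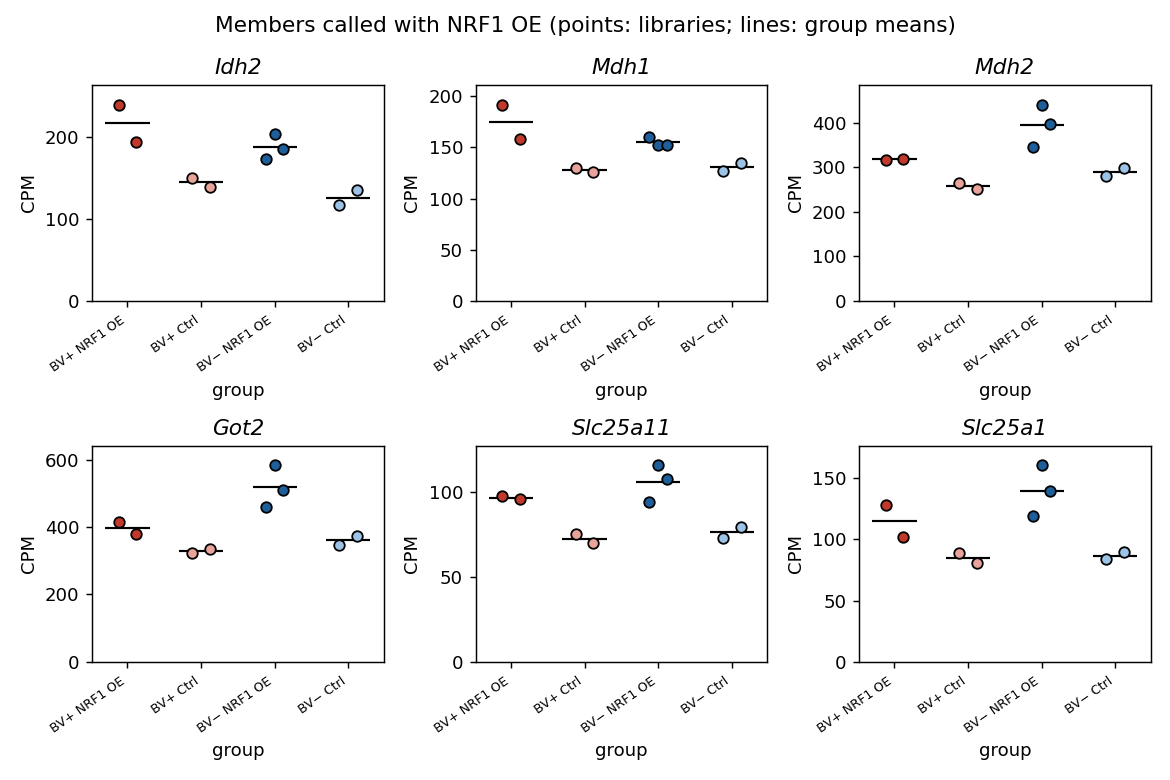
CPM (y axis, from 0) of the 6 members called with NRF1 OE in BV+ or BV− cells, with a point per library, a line at the group mean and the 4 groups on the x axis. For Idh2, for example, the BV+ NRF1 OE libraries were at 239 and 194 CPM and the BV+ Ctrl libraries at 150.1 and 139 CPM, and in each panel the NRF1 OE points of a fraction lie above its Ctrl points.

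Of the citrate export and other exit genes, Slc25a1 was called in BV− cells. Slc25a1 (ENSMUSG00000003528) was at 119, 160.5 and 139 CPM in BV− cells with NRF1 OE and at 83.7 and 89.9 CPM with Ctrl. Every NRF1 OE library was above both Ctrl libraries, and the log2 fold change of 0.69 ± 0.144 (SE, adjusted p = 0.0317 in edgeR) was the largest among the members in BV− cells. In BV+ cells it was at 128 and 102 CPM with NRF1 OE and at 88.7 and 80.9 CPM with Ctrl (log2 fold change 0.44 ± 0.156, adjusted p = 0.0876 in edgeR). The offsets moved these log2 fold changes to 0.28, still called, in BV− and 0.03 in BV+ cells. Acly, which uses the exported citrate, lay between 571 and 698 CPM in the 9 libraries and was not called. Me2, the mitochondrial malic enzyme that returns malate to pyruvate, was at 108 and 128 CPM with NRF1 OE and 134 and 121 CPM with Ctrl in BV+ cells, with overlapping groups (log2 fold change −0.11 ± 0.120, adjusted p = 0.530 in edgeR). Pck2 lay between 30.6 and 48.6 CPM and was not called.

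Of the 11 TCA cycle members, Mdh2 was called in BV− cells. Mdh2 (ENSMUSG00000019179) was at 346, 440.5 and 397 CPM with NRF1 OE and at 279 and 297 CPM with Ctrl in BV− cells. There was no overlap, and the log2 fold change was 0.45 ± 0.111 (SE, adjusted p = 0.0334 in edgeR). In BV+ cells Mdh2 was at 316 and 319 CPM with NRF1 OE and at 264 and 252 CPM with Ctrl, with the highest log2 fold change of the cycle members there, but it was not called (log2 fold change 0.30 ± 0.120, adjusted p = 0.115 in edgeR). With the offsets the values were 0.34 in BV− cells, still called, and 0.20 in BV+ cells.

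Idh3a (ENSMUSG00000032279), the catalytic subunit of the NAD‐dependent isocitrate dehydrogenase, had the lowest log2 fold change of the cycle members in BV+ cells. It was at 98.1 and 122 CPM with NRF1 OE and at 139 and 142 CPM with Ctrl, and the log2 fold change of −0.35 ± 0.145 (SE, adjusted p = 0.123 in edgeR) was not called. Its BV− levels were 134, 101 and 121 CPM with NRF1 OE and at 136 and 138 CPM with Ctrl, again without overlap and not called (log2 fold change −0.21 ± 0.132, adjusted p = 0.259 in edgeR). The other subunits of this enzyme, Idh3b at 65.6 to 78.9 CPM and Idh3g at 97.9 to 147 CPM, were not called in either fraction. Idh3b overlaps Nop56 on the opposite strand.

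The remaining cycle members, Cs, Ogdh, Dlst, Suclg1, Suclg2 and Fh1, encode citrate synthase, subunits of the 2‐oxoglutarate dehydrogenase complex and of succinyl‐CoA ligase, and fumarase. None was called in either fraction with all libraries and no offsets, and their levels lay between 106.8 CPM for Suclg1 and 421 CPM for Cs. With the offsets, Dlst was called as higher in both fractions and Suclg1 in BV− cells.

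Sucla2, the ADP‐forming subunit of succinyl‐CoA ligase, and Dld, the E3 subunit that the pyruvate and 2‐oxoglutarate dehydrogenase complexes share, had the lowest log2 fold changes of the members in BV− cells. Sucla2 (ENSMUSG00000022110) was at 55.6, 28.8 and 41.4 CPM with NRF1 OE and at 66.1 and 60.0 CPM with Ctrl. Dld (ENSMUSG00000020664) was at 81.6, 54.6 and 70.1 CPM with NRF1 OE and at 95.7 and 89.0 CPM with Ctrl. Neither gene overlapped between the groups and BV− NRF1 OE replicate 2 was the lowest library for both, yet neither was called by edgeR (log2 fold change −0.58 ± 0.211, adjusted p = 0.0691 for Sucla2 and −0.42 ± 0.152, adjusted p = 0.0677 for Dld). With the offsets the value of Sucla2 was −0.27 and that of Dld was −0.0005. In BV+ cells Sucla2 was at 52.8 and 59.9 CPM with NRF1 OE and at 56.9 and 68.2 CPM with Ctrl, Dld was at 85.7 and 95.8 CPM with NRF1 OE and at 88.8 and 101 CPM with Ctrl, and the groups overlapped for both.

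Promoter sequences are shown for the members called in BV+ cells and for the members with a match to the NRF1 core motif. This motif was searched on both strands as GCGC, the letters AN and GCGC again in 1 run in RefSeq promoters of GRCm38.p6, which hold 250 bases before and 50 after a gene's start. Promoters of 27 of the 29 members were found, not those of Idh3a and Me2. A match lay in the promoters of Dld and Sucla2, which is 7.41% of these members, beside 5.19% of 27025 genes and 4.60% of 32851 promoters. A looser run with NN in place of AN, which includes the first motif, was found in the same members, beside 7.0% of genes. In the fit without offsets these are the members with the lowest fold changes in BV− cells. This was seen after their values were known and was not tested. With the offsets Sucla2 was at −0.27 and Dld at −0.0005 there, and Idh3a and Glud1 were below Dld. Matches are in capitals, each sequence runs 5′ to 3′ on the strand of its gene, and the coordinates are of GRCm38.p6, not of the GRCm39 build of the deposited tables. For Sucla2 (chr14:73552666-73552785, plus strand) the 120 bases before the start are shown, with the match beginning 17 bases before it, and for Dld (chr12:31351422-31351451, minus strand) the last 30 bases of the window, with the match beginning at base 40 of the transcript. For Mdh1 (chr11:21571935-21572054, minus strand) and Idh2 (chr7:80115351-80115470, minus strand) the 120 bases before the start hold no match.
Sucla2: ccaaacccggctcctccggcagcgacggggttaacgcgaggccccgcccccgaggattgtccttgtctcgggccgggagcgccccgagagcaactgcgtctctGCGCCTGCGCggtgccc
Dld: cggcgatgacgtatatgttGCGCAGGCGCa
Mdh1: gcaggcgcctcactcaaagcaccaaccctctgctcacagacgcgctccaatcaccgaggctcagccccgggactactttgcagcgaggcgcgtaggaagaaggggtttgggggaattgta
Idh2: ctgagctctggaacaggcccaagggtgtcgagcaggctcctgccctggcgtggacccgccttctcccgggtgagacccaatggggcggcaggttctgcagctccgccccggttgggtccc

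The pyruvate dehydrogenase complex held no called member. Pdha1 (ENSMUSG00000031299), the E1 alpha subunit, was at 249 and 303 CPM with NRF1 OE and at 326 and 310.0 CPM with Ctrl in BV+ cells. In BV− cells it was at 306, 237 and 266 CPM with NRF1 OE and at 328 and 307 CPM with Ctrl. It was lower with NRF1 OE without overlap in both fractions but was not called (log2 fold change −0.21 ± 0.137, adjusted p = 0.302 in BV+ and −0.24 ± 0.124, adjusted p = 0.176 in BV− cells, edgeR). Its log2 fold change depended on the processing. Over alternative fits other than those with a replicate term or 1 library left out, it lay between −0.24 and −0.050 in BV+ cells. In BV− cells it lay between −0.28 and −0.0052. Its transcript GC content was 45.5%, under the members' median of 47.7%. Pdhb, the E1 beta subunit, was at 118 and 122 CPM with NRF1 OE and at 121 and 119 CPM with Ctrl in BV+ cells, a log2 fold change of 0.00 ± 0.100 (SE). In BV− cells Pdhb was at 138, 138 and 135 CPM with NRF1 OE and at 117 and 123 CPM with Ctrl (log2 fold change 0.19 ± 0.0920, adjusted p = 0.144 in edgeR), and it was called there with the offsets, at 0.38. Dlat, the E2 subunit, lay between 87.4 and 106.7 CPM and Pdhx, the E3‐binding protein, between 31.8 and 34.1 CPM over the 9 libraries. Pdha1 overlaps Map3k15 on the opposite strand.

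The pyruvate carrier subunits had the lowest levels of the members, and Mpc1 was near the lower limit of counting. Mpc1 (ENSMUSG00000023861) had 14 and 14 raw counts in the BV+ NRF1 OE libraries, against 14 and 26 at Ctrl, and 25, 20 and 13 in the BV− NRF1 OE libraries, against 17 and 27 at Ctrl. A difference was not detectable at this depth (log2 fold change −0.63 ± 0.438, adjusted p = 0.321 in BV+ and −0.03 ± 0.377, adjusted p = 0.966 in BV− cells, edgeR). Mpc2 (ENSMUSG00000026568) had 204 and 176 raw counts in the BV+ NRF1 OE libraries, against 109 and 123 at Ctrl, which is 10.5 and 9.58 CPM against 7.14 and 6.45 CPM. The groups did not overlap and the log2 fold change of 0.57 ± 0.165 (SE, adjusted p = 0.0569 in edgeR) was just short of a call, while with the offsets it was 0.79 and called. In BV− cells Mpc2 was at 7.89, 7.59 and 8.35 CPM with NRF1 OE and at 7.50 and 8.12 CPM with Ctrl (log2 fold change 0.02 ± 0.153, adjusted p = 0.921 in edgeR). Mpc1 overlaps 4930506C21Rik on the opposite strand.

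Pcx, which makes oxaloacetate from pyruvate, was higher with NRF1 OE in BV− cells. It was at 76.7, 104 and 105 CPM with NRF1 OE and at 65.4 and 72.3 CPM with Ctrl, without overlap (log2 fold change 0.47 ± 0.140, adjusted p = 0.0446 in edgeR). Its BV+ levels were 68.1 and 69.3 CPM with NRF1 OE and at 59.4 and 58.2 CPM with Ctrl (log2 fold change 0.22 ± 0.152, adjusted p = 0.313 in edgeR). With the offsets it was not called in BV− cells, at 0.15, and was at −0.12 in BV+ cells. The call in BV− cells held without BV− NRF1 OE replicate 1 and was lost without each other library.

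Across the members, the fold change of NRF1 OE followed the GC content of the transcript, as it did across all genes. Spearman's rho of log2 fold change with GC content was 0.430 in BV+ and 0.793 in BV− cells over the 29 members, and 0.475 and 0.617 over 16662 genes, where all genes share the same libraries. The 5 members called in BV− cells had a GC content of 50.9% for Mdh2 to 59.1% for Slc25a1, and Dld and Sucla2 were at 40.6% and 43.2%. Mdh1, at 45.7%, and Mpc2, at 43.2%, were above 0 in BV+ cells at a GC content under the members' median of 47.7%. With the offsets, rho over the members was −0.287 in BV+ and 0.131 in BV− cells, 4 members were called in BV+ cells (Mpc2, Dlst, Idh2 and Mdh1) and 7 in BV− cells (Pdhb, Dlst, Suclg1, Mdh2, Mdh1, Got2 and Slc25a1), all higher. Among all genes, the offsets raised the number of calls in BV+ cells, as for the members. In BV− cells they lowered it, unlike for the members. How the calls among all genes with offsets split by direction is not given here. The members' median log2 fold change with offsets was 0.08 in BV+ cells, beside −0.01 for all genes, and 0.20 in BV− cells, beside 0.03.

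**Figure D4:**
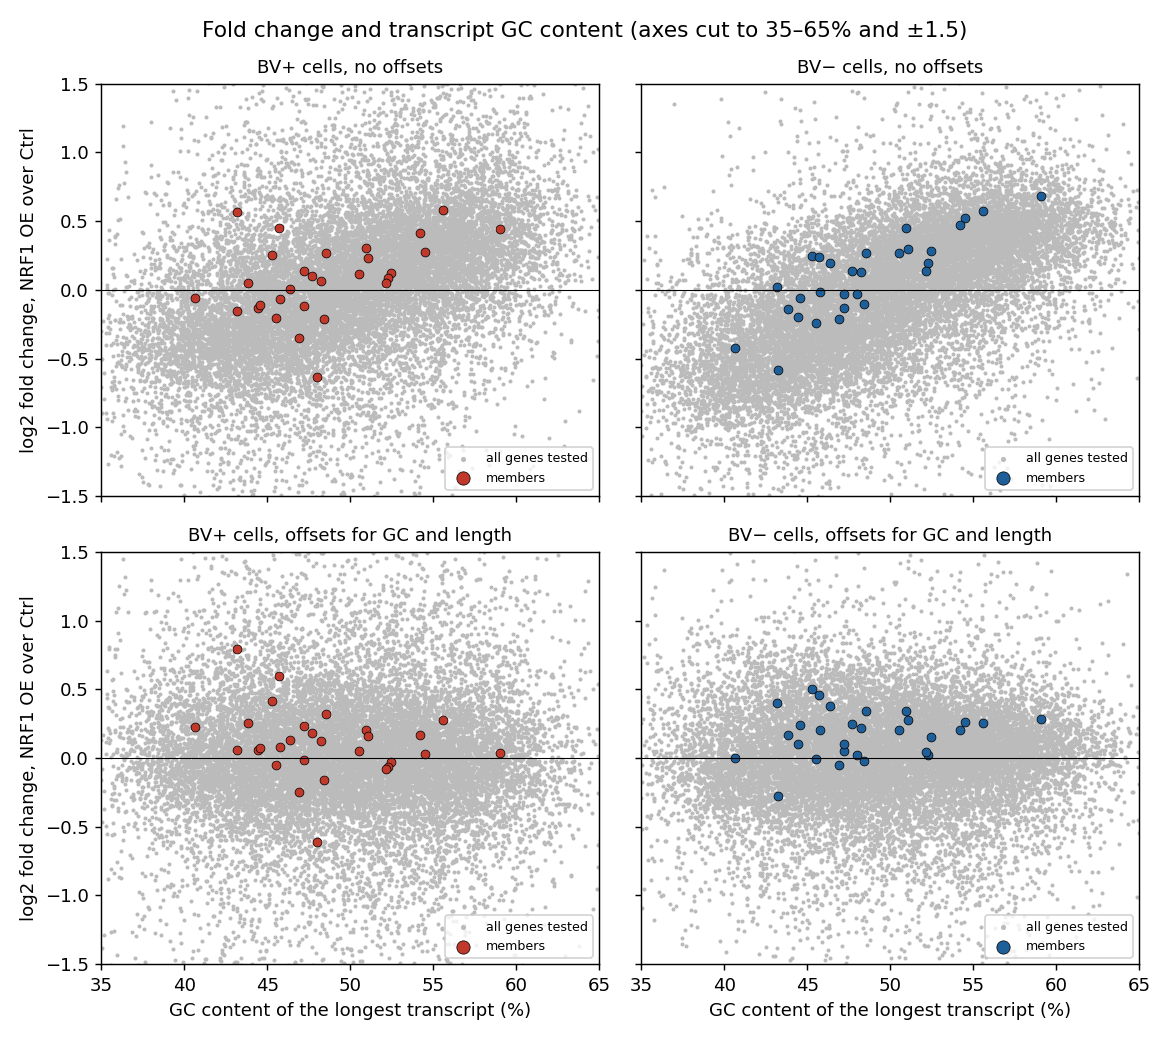
Log2 fold change of NRF1 OE over Ctrl (y axis) against the GC content of the longest transcript (x axis, %) in BV+ and BV− cells, for the 29 members (coloured) and all genes tested (grey), without offsets (top) and with them (bottom), on axes that leave out some grey points. Without offsets the members climb from Dld at 40.6% GC to Slc25a1 at 59.1% GC in BV− cells, with a rho of 0.793, and with offsets the rho is 0.131.

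Some markers of other cells differed between NRF1 OE and Ctrl. The 8 fibroblast and mesenchyme markers summed to 714 to 1200 CPM in BV+ cells with NRF1 OE and to 201 to 208 CPM with Ctrl, and 4 of the 6 that were tested were called as higher (Col1a1, Col1a2, Col3a1 and Acta2) and 0 as lower. In BV− cells the sum was 78.5 to 112 CPM with NRF1 OE and 48.0 to 61.0 CPM with Ctrl, and 2 of the 6 were higher. Dcn and Lum of this list were at no more than 0.515 CPM in any library. Of the other lists in BV+ cells, Nes (neuroectoderm, log2 fold change 1.60) and Kdr (mesoderm, 1.49) were called as higher. Pdgfra (mesoderm, −1.17) and the naive pluripotency markers Klf4 (−0.67) and Zfp42 (−0.67) were called as lower there. In BV− cells Esrrb and Klf2 (naive pluripotency) were called as higher. Klf4, Tbx3 and Zfp42 (naive pluripotency), Pdgfra (mesoderm) and Gata6 and Dab2 (endoderm) were called as lower in BV− cells. With NRF1 OE, the 9 PGC markers summed to 1240 to 1281 CPM in BV+ and to 1715 to 1880 CPM in BV− cells. Between these groups, 0 of the 9 were called as higher and 5 as lower in BV+ than in BV− cells. The background was 9.9% of all genes higher and 3.85% lower. Against Ctrl of the same fraction, NRF1 OE went with 1 PGC marker called as higher in BV+ and 4 in BV− cells, and 0 as lower. For NRF1 OE against Ctrl, 6.24% of all genes were called as higher and 1.78% as lower in BV+ cells. The shares in BV− cells were 10.2% and 6.98%. In sorted populations, more cells of a type and more RNA per cell cannot be told apart, and the part of these markers in the members' differences was not tested.

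The NRF1 OE effect was compared between the fractions by an interaction term in edgeR, which called 0 members and 0 of all genes. At an unadjusted p under 0.05 it gave 1 member, Mpc2, and 5.51% of all genes, and DESeq2 called 0 members. For Mpc2 the log2 fold change was larger in BV+ cells, by 0.54 ± 0.224 (SE, adjusted p = 0.825 in edgeR). The standard errors of this term over the members lay between 0.13 and 0.578, so an effect confined to one fraction was not shown for any member.

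At Ctrl, no member was called between BV+ and BV− cells. In edgeR 0 of the 29 members were called at an adjusted p under 0.05, 0 reached an unadjusted p under 0.05 and DESeq2 called 0, beside 1.12% of all genes called. The members' log2 fold changes of BV+ over BV− cells lay between −0.20 for Mpc2 and 0.20 for Idh2, with a median of −0.04 and standard errors from 0.0960 to 0.413. The groups did not overlap for 14 members, 2 higher and 12 lower, beside 48% of all genes, of which 22.6% were higher and 25.4% lower.

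With NRF1 OE, Got2 was lower in BV+ than in BV− cells. Its levels of 414 and 381 CPM were below the 460.1, 584 and 511 CPM of the BV− libraries, and the log2 fold change was −0.38 ± 0.112 (SE, adjusted p = 0.0438 in edgeR). This was 1 of the 29 members (3.45%), beside 13.8% of all genes, of which 9.9% were higher and 3.85% lower. The groups did not overlap for 14 members, with Dld and Mpc2 higher and 12 lower, beside 39.9% of all genes, of which 20.3% were higher and 19.5% lower. Pcx also was lower in BV+ cells (log2 fold change −0.47 ± 0.140, adjusted p = 0.0461 in edgeR). So was Nrf1 itself (log2 fold change −0.33 ± 0.0952, adjusted p = 0.0431 in edgeR). Of the 6 fibroblast and mesenchyme markers tested, 5 were called as higher in BV+ than in BV− cells with NRF1 OE and 0 as lower. At Ctrl, 3 of them (Col1a1, Col1a2 and Col3a1) were also called as higher in BV+ cells and 0 as lower, beside 1.12% of all genes. The part of Nrf1 and of these markers in the members' differences was not tested. The members' median log2 fold change was −0.13, beside −0.0049 for all genes. With the offsets 12 members were called, Idh2 higher and 11 lower, but the median of all genes was then −0.13, beside −0.21 for the members. Without BV− NRF1 OE replicate 1, 8 members were called, and without any other library 0 were called. The 13.8% of all genes comes from the fit of all 9 libraries without offsets. The shares of all genes in these other fits are not given here. The NRF1 OE libraries are the same as in the comparisons with Ctrl.

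The ratio of paired enzymes within a library compares a mitochondrial with a cytosolic enzyme, or 1 subunit with its alternative. The Idh2 to Idh1 ratio of FPKM in BV+ cells was 2.71 and 2.11 for NRF1 OE against 1.73 and 1.60 for Ctrl. The BV− libraries had ratios of 1.93, 2.93 and 2.45 for NRF1 OE against 1.35 and 1.59 for Ctrl. The Got2 to Got1 ratio in BV+ cells was 1.02 and 0.946 for NRF1 OE against 0.844 and 0.886 for Ctrl, and the BV− libraries had 1.04, 1.12 and 1.08 for NRF1 OE against 0.856 and 0.869 for Ctrl. Both ratios were higher in each NRF1 OE library than in any Ctrl library of the same fraction. The Mdh2 to Mdh1 ratio in BV+ cells was 1.23 and 1.51 for NRF1 OE against 1.52 and 1.49 for Ctrl, and the Sucla2 to Suclg2 ratio in BV− cells was 0.432, 0.253 and 0.325 for NRF1 OE against 0.468 and 0.425 for Ctrl. In these the groups overlapped. The paired genes differ in GC content (55.6% for Idh2 and 43.8% for Idh1, 54.5% for Got2 and 52.3% for Got1), and the ratios hold no offsets. Without offsets the log2 fold changes in BV+ cells were 0.58 for Idh2 and 0.05 for Idh1, and with them 0.28 and 0.25. In BV− cells they were 0.57 and −0.14 without offsets and 0.26 and 0.17 with them. The log2 fold changes of Got2 and Got1 were 0.27 and 0.09 in BV+ cells without offsets and 0.03 and −0.07 with them, and in BV− cells 0.52 and 0.20 without and 0.26 and 0.03 with them.

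**Figure D5:**
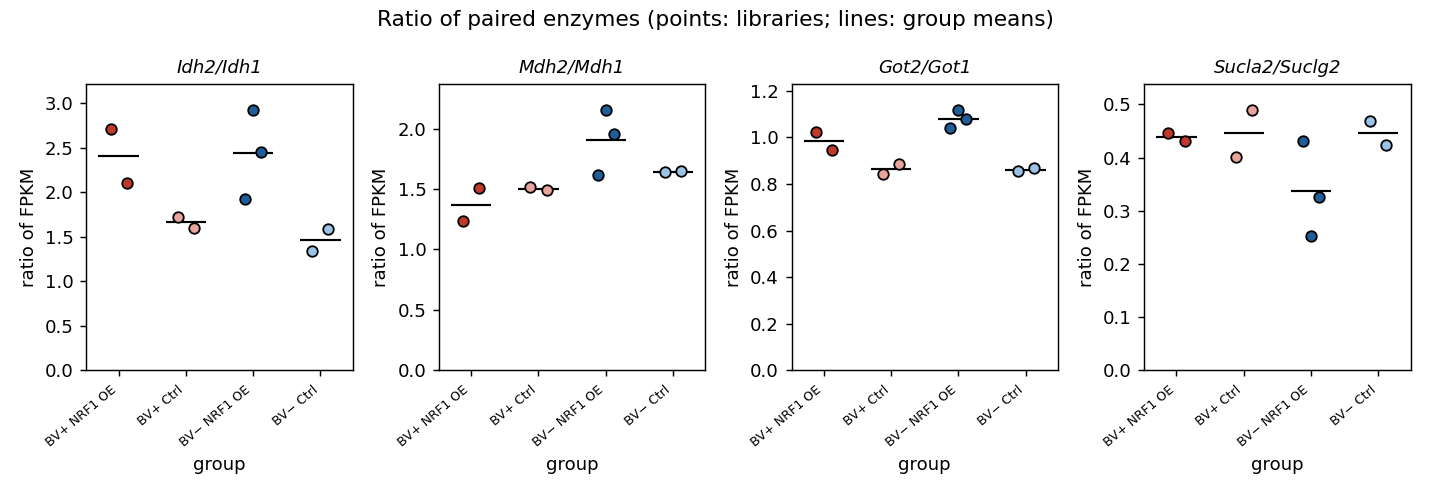
Ratio of deposited FPKM of paired enzymes (y axis, from 0) by group (x axis), with a point per library and a line at the group mean. The mean Idh2 to Idh1 ratio was 2.41 with NRF1 OE and 1.66 with Ctrl in BV+ cells, and 2.44 and 1.47 in BV− cells.

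Of 41 other genes of the pathway, 39 were tested. In BV+ cells 1 was called with NRF1 OE, as lower, and in BV− cells 8 were called, 7 higher and 1 lower. The calls made up 2.56% of the 39 genes in BV+ cells, beside 8.02% of all genes, and 20.5% in BV− cells, beside 17.2%. DESeq2 called 4 and 11 of them. The median log2 fold change of the 39 genes was −0.04 in BV+ cells, beside 0.04 for all genes, and 0.01 in BV− cells, beside 0.01.

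Among the genes that were higher in BV− cells, Slc25a10, the dicarboxylate carrier, was at 17.8, 26.4 and 22.6 CPM with NRF1 OE and 12.5 and 16.2 CPM with Ctrl (log2 fold change 0.63, adjusted p = 0.0473 in edgeR). Ldha, which makes lactate and has processed pseudogenes that could share its reads, was at 194, 275 and 200.2 CPM with NRF1 OE and 134 and 162 CPM with Ctrl (log2 fold change 0.59, adjusted p = 0.0435 in edgeR). Ogdhl, a paralogue of Ogdh, was higher by 0.52 on the log2 scale (adjusted p = 0.0317 in edgeR), and Sdhb, a subunit of succinate dehydrogenase, by 0.49 (adjusted p = 0.0362 in edgeR). None of these genes overlapped between the groups. With the offsets, Ogdhl was still called, and Slc25a10, Ldha and Sdhb were not called in BV− cells. All 4 calls were lost without BV− NRF1 OE replicate 3 or any of the 4 Ctrl libraries, that of Ldha also without BV− NRF1 OE replicate 2, and that of Slc25a10 also without BV− NRF1 OE replicate 2 or BV+ NRF1 OE replicate 2.

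Between the fractions, 0 of the 39 genes were called at Ctrl by edgeR, 0 reached an unadjusted p under 0.05 and DESeq2 called 0, beside 1.12% of all genes called by edgeR. With NRF1 OE 4 were called (10.3%), beside 13.8% of all genes. D2hgdh, which removes D‐2‐hydroxyglutarate, was higher in BV+ cells, at 8.04 and 6.26 CPM against 3.25, 4.57 and 3.14 CPM (log2 fold change 0.98 ± 0.222, adjusted p = 0.0133 in edgeR). Gls2, a glutaminase, was lower, at 30.8 and 30.1 CPM against 44.4, 47.0 and 43.4 CPM (log2 fold change −0.56 ± 0.113, adjusted p = 0.00716 in edgeR). Asns, asparagine synthetase, and Ldhb, a lactate dehydrogenase subunit, were lower as well, with log2 fold changes of −0.41 (adjusted p = 0.0238) and −0.35 (adjusted p = 0.0332 in edgeR). Without BV+ NRF1 OE replicate 1 none of these 4 was called. Those of Gls2, Asns and Ldhb were also lost without BV+ NRF1 OE replicate 2, that of D2hgdh without BV− NRF1 OE replicate 3, that of Asns without each of the 4 Ctrl libraries, and that of Ldhb without every other library but BV− NRF1 OE replicate 1. The interaction term called 0 of the 39 genes, and 1, Gls2, reached an unadjusted p under 0.05.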

How the data were processed

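RNA‐seq was measured in 9 libraries of 4 groups, and members, gene lists and tests were chosen with earlier results of these data known. By the submitters' processing notes, the authors used GRCm39, HISAT2 2.0.1 for mapping and HTSeq 0.6.1 for counting reads per gene, and they deposited raw counts, which are not normalized, and FPKM. FPKM were used for levels between genes and for ratios. Strand use is not given in the sources used here, and the study's text names DESeq2 and TMM for its own tests.

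Counts were tested in R 4.3.3 with edgeR 4.0.16 (quasi‐likelihood F test, TMM, filterByExpr, all libraries in 1 fit with a term for each group, biological coefficient of variation 0.129), two‐sided, with Benjamini‐Hochberg adjustment over 16903 genes in each of 5 comparisons. Standard errors were derived from F and the log2 fold change. Alternatives were DESeq2 1.42.0, other scalings, no filter, only the groups compared, the replicate number as a term, offsets (splines of 5 degrees of freedom over GC content and length of the longest GRCm38 transcript, 16662 genes), the study's threshold and each library left out. The procedure was checked on simulated counts. Of the members, those called, those with the lowest and highest fold change of each role group in BV+ cells, and of the other pathway genes up to 5 called per comparison are given with full values. Some of the called pathway genes are not reported here. Sucla2 and Dld in BV− cells were added after their values were seen. Figures were drawn with matplotlib 3.10.9.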

Additional observations from a re-analysis of the deposited data

How the results depend on the processing

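Counts of members called, in BV+ cells 2, in BV− cells 5 and between the fractions with NRF1 OE 1, moved with the processing, and the cause was not tested. In BV+ cells they were 1 at the study's threshold, 1 with library size alone, 1 with upper‐quartile factors, 5 with only the groups compared, 4 with GC and length offsets and 0 with the replicate block (without 1 library, 0 to 7). In BV− cells they were 2 at the study's threshold, 0 with only the groups compared, 0 with the replicate block and 0 with offsets and block (without 1 library, 0 to 13). Between the fractions with NRF1 OE they were 0 at the study's threshold, with library size alone, with only the groups compared and with the block, 3 without a filter, 12 with offsets and 4 with offsets and block (without 1 library, 0 to 8). Calls among all genes moved too. With only the groups compared, 0 of all genes were called in BV− cells, but more in BV+ cells than in the fit of all groups. The replicate block called 0 of all genes in BV− and 3 in BV+ cells. Offsets and block called fewer of all genes in BV− cells than offsets alone. In these settings the losses of calls were not particular to the members. At the study's threshold in BV+ cells, more of all genes but fewer members were called. A lone library left in a group was assumed to vary like the other groups.

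The median log2 fold change of the members kept its sign in the comparisons below, except for the interaction. In BV+ cells it was 0.050 with library size alone (without 1 library, 0.066 to 0.15), and in BV− cells 0.10 with library size alone, 0.18 with the replicate block, 0.20 with offsets and 0.20 with offsets and block (without 1 library, 0.079 to 0.20). Between the fractions it was −0.087 with offsets and −0.085 with offsets and block at Ctrl (without 1 library, −0.11 to −0.010), and −0.17 with upper‐quartile factors, −0.21 with offsets and −0.20 with offsets and block with NRF1 OE (without 1 library, −0.11 to −0.048). For the interaction it was −0.10 with upper‐quartile factors, −0.090 with offsets and −0.11 with offsets and block, and −0.063 to 0.058 without 1 library.

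Uncalled fold changes changed sign as follows. With offsets, and with offsets and block, Dld in BV+ cells became 0.22 and 0.22, Idh1 in BV− cells 0.17 and 0.19, Me2 0.073 and 0.066 in BV+ and 0.24 and 0.24 in BV− cells, Mpc1 in BV− cells 0.019 and 0.29, Pcx in BV+ cells −0.12 and −0.12, and Sucla2 in BV+ cells 0.062 and 0.061. Pdha1 in BV− cells became 0.0085 with offsets and block. In BV− cells Mpc1 became 0.26 with the block, and Mpc2 −0.014 with library size alone and −0.016 with the block. Pdhb in BV+ cells became −0.035 with library size alone, −0.030 with upper‐quartile factors, −0.020 without a filter and −0.027 with only the groups compared. Without 1 library, Dld (−0.10 to 0.076), Me2 (−0.18 to 0.013), Pdhb (−0.018 to 0.068) and Sucla2 (−0.23 to 0.029) in BV+ cells, and Me2 (−0.15 to 0.0072), Mpc1 (−0.22 to 0.23) and Mpc2 (−0.039 to 0.070) in BV− cells, spanned 0.

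Whether the replicate numbers of the labels pair the libraries was not settled. Deviations of same‐numbered libraries from their group means correlated between −0.295 and 0.243. The NRF1 OE and Ctrl libraries of BV− cells correlated at 0.204 and 0.243, and the other same‐numbered pairs had negative values. In a group of 2 libraries the deviations mirror each other, so crossed numbers give the same value with the opposite sign. Since the BV+ and BV− Ctrl libraries of the same number correlated at −0.104, a block with crossed numbers was added for this comparison after seeing the data. It called 0 members, as did every other setting there, so nothing about stability follows from it. Mpc1, at 13 to 27 counts per library, was limited by depth.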

Other observations

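Slc38a2, a glutamine transporter of the plasma membrane, was described after its values were seen. It was at 268 and 343 CPM with NRF1 OE and 469 and 465 CPM with Ctrl in BV+ cells, and at 363, 253 and 386 CPM with NRF1 OE and 500.0 and 456 CPM with Ctrl in BV− cells. Every NRF1 OE library was below the Ctrl libraries of its fraction, as for 32% of all genes in BV+ and 27.6% in BV− cells. Neither difference was called by edgeR, with log2 fold changes of −0.61 (adjusted p = 0.0588) in BV+ and −0.52 (adjusted p = 0.0500) in BV− cells. Slc38a2 passed the study's threshold as lower in BV+ cells, where 17% of all genes passed in either direction, and did not pass in BV− cells. Slc1a5, another glutamine transporter, lay between 49.4 and 56.1 CPM in the 9 libraries. Transcript GC content was 44.7% for Slc38a2 and 56.7% for Slc1a5, and its part in these values was not tested.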
